A study of Mus musculus with 21 samples.

Results

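Primary mouse hepatocytes that had been stimulated in culture were set beside whole liver from oil-injected mice, gene by gene, to describe how far a purified and stimulated cell preparation departs from the organ it came from. The comparison used 6 of the 21 libraries of the series, chosen by their labels. The 3 hepatocyte libraries are from wild type primary murine hepatocytes given LPS at 1 µg/mL for 6 h and nigericin at 10 µM for 30 min. The 3 liver libraries are from wild type mice that received intraperitoneal oil, for 6 weeks by the labels, as the control arm of a carbon tetrachloride (CCl4) fibrosis model for which the design text gives 8 weeks. Values are also given for 3 hepatocyte libraries treated alike with the NLRP3 inhibitor MCC950 (10 µM, added 2 h before) and for 3 wild type CCl4 livers. The age, sex and strain of the mice, the way the hepatocytes were isolated and the time in culture are not given in the sources used here. No unstimulated hepatocyte culture was analysed here, and the 2 groups come from tables that were normalized separately. The removal of other cells, culture, LPS, nigericin and the table therefore cannot be told apart in any difference below, and no test was run between the groups.

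Hepatocytes make up most of the liver's mass, secrete most plasma proteins, and carry out drug, bile acid, amino acid and lipid metabolism, with different enzymes near the portal and the central veins. Isolation and plating detach them from matrix, blood flow and neighbouring cells, and plated hepatocytes are known to lose adult metabolic expression and to build an actin and keratin cytoskeleton. LPS, a bacterial cell wall lipid, signals through TLR4 with its partners CD14 and MD-2 to NF-kB, and nigericin, a potassium ionophore, is the usual second signal that makes NLRP3, the adaptor ASC (Pycard) and caspase-1 process interleukin-1β and interleukin-18 and cleave gasdermin D.

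Libraries held 14353483 to 16684832 assigned reads, and the groups overlapped in depth. Expression is given as coding TPM, the deposited FPKM of a gene divided by the library's sum over protein-coding genes and scaled so that they sum to 1000000, so that levels are per length and can be compared between genes. A difference is the mean log2(TPM + 1) of the hepatocytes minus that of oil liver, which understates the change of low genes, and a fold is the ratio of mean TPM. Values are given for replicates 1, 2 and 3 in that order, or as mean ± SD (n = 3). A gene was called where the difference reached 3 (8-fold) and the 3 libraries of 1 group all lay above the 3 of the other. Of 10862 coding genes with a mean of at least 1 TPM, 255 (2.35%) were called higher in hepatocytes and 331 (3.05%) lower. Non-overlap alone held for 75.9% of tested genes and is no mark of a large difference, and 57.6% of tested genes lay within 2-fold. The median gene was higher by 0.30 in hepatocytes. With that median set to 0, 31.0% of the calls were higher, and with FPKM as deposited 30.6%, against 43.5% in the main comparison. The gene-wise SD on the log2 scale had a median of 0.11 in hepatocytes and 0.24 in oil liver. The Y-linked Ddx3y was at 28.1, 32.2 and 40.2 TPM in hepatocytes and 33.2, 27.6 and 45.5 in oil liver, while Xist, expressed in females, had at most 3 reads in any of these 6 libraries. Of the CCl4 livers, replicate 3 differed in this respect, with Xist at 258.7 TPM and Ddx3y at 37.9, 35 and 0.134 TPM in replicates 1 to 3.

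**Figure D1:**
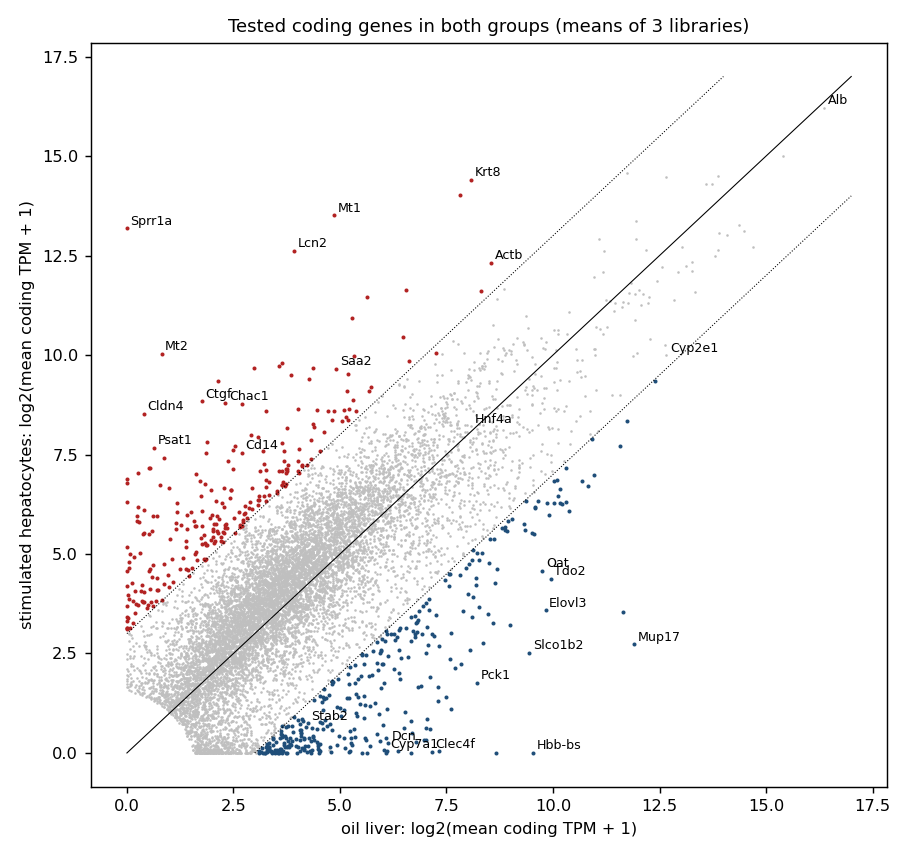
Mean level of each of the 10862 tested coding genes in oil liver (x axis) and in stimulated hepatocytes (y axis), both as log2(mean coding TPM + 1); dotted lines mark 8-fold. Red points are the 255 genes called higher in hepatocytes and blue points the 331 called lower; Alb and Hnf4a lie near the diagonal, and Sprr1a and Hbb-bs lie farthest from it.

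The labelled cell type was checked first. The summed markers of 9 other cell types were far lower in the hepatocyte libraries than in oil liver, and those of bile duct cells were higher. The 20 hepatocyte core markers summed to 119136 to 126654 TPM in hepatocytes and 144773 to 148792 in oil liver. In a bulk sample, fewer cells of a type and less RNA per cell cannot be told apart.

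Resident macrophages (Kupffer cells) gave the lowest median difference among the larger lists. Of 17 tested macrophage genes, 13 were called lower and none higher, with a median difference of -5.08 against 0.30 over all tested genes. Clec4f, the lectin that defines Kupffer cells, was at 0, 0.0674 and 0 TPM in hepatocytes, at most 1 read in a library, and at 129, 175 and 123 TPM in oil liver. C1qb, a subunit of the complement initiator C1q made by macrophages, was at 0, 0 and 0.762 TPM in hepatocytes and 124, 152 and 100.2 in oil liver. Lyz2, the lysozyme of myeloid cells, was at 1.16, 0.759 and 1.51 TPM in hepatocytes and 186, 228 and 170.4 in oil liver, a 170.3-fold difference. Cd5l, a secreted macrophage scavenger receptor, had 0, 0 and 0.0814 TPM in hepatocytes and 144, 211 and 121 in oil liver. For these 4 genes every hepatocyte library lay far under every liver library. The summed macrophage level in hepatocytes, 92.8 to 105 TPM against 894 to 1338 in oil liver, came almost wholly from 2 genes that other cells also express. The lysosomal glycoprotein gene Cd68 was higher in the cultures, at 88.4, 76.9 and 79.8 TPM against 24.2, 21.7 and 17.3 in oil liver, and the iron exporter gene Slc40a1 was at 14.8, 14.1 and 13.9 against 43.8, 40.7 and 46.5. Of the 18 macrophage genes, 14 had at most 9 reads over the 3 hepatocyte libraries together, and 4 of these had none.

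Sinusoidal endothelial and stellate genes were also scarce. Of 20 tested endothelial genes, 13 were called lower and all 20 had a lower mean, with a summed level of 21.5 to 22.6 TPM in hepatocytes and 484 to 635 in oil liver. Aqp1, a water channel of endothelium and bile ducts, was at 0.259, 0.444 and 0.82 TPM in hepatocytes and 154, 142 and 119 in oil liver. Stab2, a hyaluronan scavenger receptor of sinusoids, was at 0.796, 0.722 and 0.511 TPM against 21.5, 17.3 and 15. Cdh5 (VE-cadherin), not called, was at 3.89, 2.97 and 2.84 TPM in hepatocytes and 33.4, 24.6 and 18.6 in oil liver, and the groups did not overlap. Of 17 tested stellate cell and fibroblast genes, 8 were called lower, and 10 of the 20 genes listed had no read in any hepatocyte library. The matrix proteoglycan gene Dcn was at 0.0583, 0.342 and 0.142 TPM in hepatocytes against 71.6, 59.3 and 74.8 in oil liver. Colec11, a stellate-enriched collectin, had no read in hepatocytes and 57.7, 56.3 and 32 TPM in oil liver, at least 157-fold higher at a floor of 3 reads per library. Most of the summed stellate level of the cultures, 16.6 to 18.5 TPM, was the secreted matrix protein gene Ecm1 at 12.7, 13.3 and 14.6 TPM, against 147, 110.0 and 78.2 in oil liver. Ecm1 was just short of the rule and was called without oil replicate 3 (difference -3.15). On the scale of FPKM as deposited 5 stellate genes were called.

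Blood and lymphoid RNA was likewise nearly absent. The 4 hemoglobin genes had no read in any of the 3 hepatocyte libraries, while Hbb-bs, the adult beta chain, was at 363, 994 and 857 TPM and Hba-a1, an alpha chain, at 253, 610.4 and 358 TPM in oil liver. Alas2, the erythroid heme synthesis enzyme, was the exception, with 32.7, 34.4 and 33.9 TPM in hepatocytes and 130.3, 138 and 134 in oil liver. The 10 genes of the dendritic cell and MHC class II list summed to 2.59 to 6.37 TPM in hepatocytes and 226 to 330 in oil liver. Of these genes 6 were too low to be tested. The other 4, Cd74, H2-Aa, H2-Ab1 and H2-Eb1, passed the filter through oil liver, so that their lower calls are not independent of it. Cd74, the class II invariant chain, was at 0.965, 1.65 and 1.76 TPM against 181, 170.3 and 121. S100a9, a neutrophil calgranulin, was at 0, 0.638 and 0 TPM against 3.85, 17.5 and 9.7 and lost its call without hepatocyte replicate 1 or 3 (difference -2.95) or oil replicate 2 (-2.61). The 13 T and NK cell genes together summed to 0.0773 to 0.216 TPM in hepatocytes and 8.71 to 11.1 in oil liver, and the 6 mesothelial genes to 0 and 7.77 to 16.8.

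Bile duct markers were the 1 cell type list whose sum was higher in the cultures, at 156 to 174 TPM against 75.1 to 97 in oil liver, and no member was called in either direction. That sum was carried by Spp1 (osteopontin), at 147, 128 and 125 TPM in hepatocytes and 59.5, 44.8 and 54.8 in oil liver. The biliary keratin gene Krt19 went the other way, at 0.275, 0.449 and 0.268 TPM against 3.67, 3.2 and 2.18. Sox9, a biliary and injury transcription factor, was at 14.3, 16.2 and 16.2 TPM against 8.6, 7.39 and 6.98. The median of the 6 tested genes was -0.19. With FPKM as deposited the list median was 0.53, but the level filter then applied to FPKM, so that the tested members can differ.

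**Figure D2:**
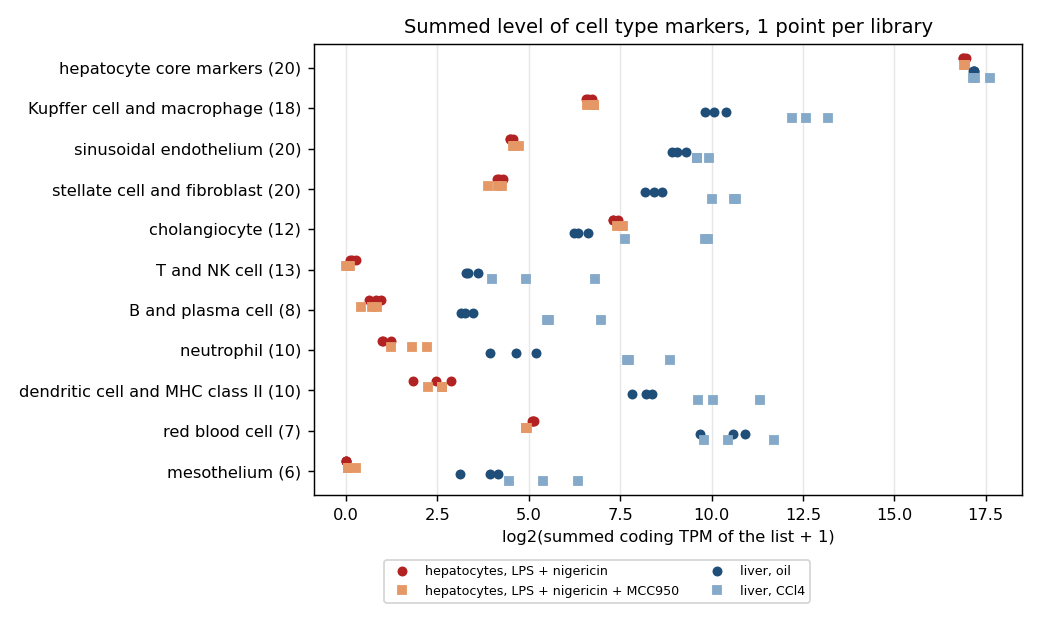
Summed coding TPM of each cell type marker list, as log2(sum + 1), with 1 point for each of 3 libraries in 4 groups. The number of matched coding genes of each list is in parentheses. Hepatocyte libraries (red, orange) lie left of oil liver (blue) for every list but cholangiocyte, and CCl4 liver (light blue) lies to the right of oil liver for macrophage and stellate genes.

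Hepatocyte markers and secreted liver proteins were mostly somewhat lower in the cultures, with few genes past 8-fold. Alb, the main plasma protein and the most abundant coding transcript in both groups, was at 82777, 71191 and 74512 TPM in hepatocytes and 81257, 77106 and 93307 in oil liver, and the groups overlapped. Of 20 core markers 17 had a negative difference (median -0.90), 12 lay within 2-fold, and 2 were called lower, or 5 with FPKM as deposited. Of these, Tat (tyrosine aminotransferase) was at 84.2, 86.9 and 90.9 TPM against 1309, 1198 and 837 in oil liver. Of 34 plasma carrier and apolipoprotein genes, 30 had a negative difference (median -0.64), 21 lay within 2-fold and none was called lower. Both shares within 2-fold are near the 57.6% of all tested genes. Apoa1, the main protein of high density lipoprotein, was at 17147, 22616 and 20395 TPM in hepatocytes and 14994, 18106 and 7409.6 in oil liver, where replicate 3 was the lowest. Ambp, the precursor of alpha-1-microglobulin and bikunin, had means of 3568 ± 163 and 3667 ± 752 TPM. The 1 member called higher, 2.94% of the list against 2.35% of all tested genes, was Apoa4, an apolipoprotein gene that fasting and fat induce. It was at 901, 1156 and 980.2 TPM against 58.4, 35.8 and 23.7, a 25.8-fold difference without overlap.

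Of 48 complement and coagulation genes 45 had a negative difference, with a median of -0.87 against 0.30 over all tested genes, and 27 lay within 2-fold, a share near that of all tested genes. Vtn (vitronectin) had means of 2623 ± 66.5 TPM in hepatocytes and 2583 ± 274 in oil liver. Of the 4 members called lower, Klkb1, the precursor of plasma kallikrein, was at 2.72, 3.3 and 3.09 TPM against 84.8, 74.1 and 89. Cfp (properdin), a complement protein of myeloid cells, was at 0.196, 0.192 and 0.573 TPM against 40.4, 52.4 and 27.5. Serpind1 (heparin cofactor II) was called by a narrow margin, at 80 ± 2.48 TPM against 657 ± 60.9, and not without hepatocyte replicate 2 (difference -2.99) or oil replicate 3 (-2.95). Without oil replicate 3 the count of members called lower was 2. F3 (tissue factor), the cell surface starter of coagulation, was the 1 member called higher, at 38.2, 39.1 and 48 TPM against 4.77, 2.17 and 2.14, and was not called with FPKM as deposited (2.79). That 1 member is 2.08% of the tested list, against 2.35% of all tested genes.

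Of 28 transcription factors of hepatocyte identity, 21 had a negative difference and 7 a positive one. Hnf4a, the nuclear receptor on which much of the adult hepatocyte program depends, was at 267, 312 and 308 TPM in hepatocytes and 302, 276 and 229 in oil liver, with overlapping groups. Of 28 factors 3 were called lower and none higher, with a median of -0.88. Nr0b2 (SHP), the bile-acid-induced repressor of bile acid synthesis, was at 0, 0.441 and 0.293 TPM against 171, 132 and 82.6. Klf15, a factor of fasting and amino acid metabolism, was at 8.47, 9.6 and 8.55 TPM against 123, 118 and 93.3. Onecut1 (HNF6) was at 0.124, 0.202 and 0.0806 TPM against 29.4, 5.88 and 3.2. Its call rested on oil replicate 1, without which the difference was -2.24.

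Metabolic enzyme genes of both liver zones were lower. Of 18 pericentral genes 4 were called lower (median -2.42), and of 18 periportal and urea cycle genes also 4 (median -2.29), with none called higher in either. With FPKM as deposited 7 and 6 were called lower, and with the median set to 0, 5 and 7. Oat (ornithine aminotransferase), a pericentral enzyme, was at 20.8, 25 and 23.1 TPM against 897, 705 and 984, 37.5-fold lower. Glul (glutamine synthetase), confined in liver to the cells around the central vein, was at 77.4, 91.6 and 82.9 TPM against 632, 569 and 438 and did not reach the rule. On the periportal side Pck1, the rate-limiting enzyme of gluconeogenesis, was at 1.98, 2.48 and 2.76 TPM against 301, 375 and 216, 124-fold lower. Hal (histidase) was at 4.66, 5.43 and 5.05 TPM against 299.9, 261 and 234. Cps1, the entry enzyme of the urea cycle, was at 261, 267 and 281 TPM against 2377, 1735 and 2229.9, a difference of -2.95 just short of the rule that passed it without oil replicate 2 (-3.09). Hsd17b13, a lipid droplet enzyme of periportal cells, had means of 308 ± 5.81 TPM in hepatocytes and 308 ± 37.5 in oil liver.

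Genes of bile acid synthesis and transport were lower by a median of 3.07 on the log2 scale. Of 26 tested genes for bile acid synthesis and transport, 13 were called lower and none higher, against 3.05% of all tested genes. Slco1b2, the basolateral carrier that takes bile acids and drugs up from blood, was at 4.9, 4.49 and 4.81 TPM in hepatocytes and 579.6, 600.0 and 902 in oil liver, 147-fold lower. Cyp7a1, the rate-limiting enzyme of bile acid synthesis, had 2 reads in hepatocyte replicate 1 and none in the others, against 40.8, 41.3 and 120.2 TPM in oil liver. Abcg8, a subunit of the canalicular sterol exporter, was at 0.318, 0.311 and 0.0884 TPM against 83.5, 51.4 and 46.7. A difference within 2-fold was seen in 4 of the 26, and with a 4-fold threshold 20 were called lower and 1 higher. Abcc3, a basolateral export pump, was at 142, 145 and 154 TPM against 141, 122 and 113, slightly above it. Cyp27a1, of the alternative synthesis route, was 2.01-fold lower at 263 ± 2.13 against 530.1 ± 70 TPM.

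Breakdown of aromatic amino acids and histidine was lower in every member, with 9 of 18 called (median -2.76). Tdo2, which opens the tryptophan ring, was at 18.7, 20.3 and 20.1 TPM against 799, 1035 and 1131, 50.2-fold lower. Kynu (kynureninase), further down that route, was at 4.18, 4.39 and 4.23 TPM against 88.4, 74.7 and 92.9. The smallest difference in the list was that of Pcbd1, the cofactor recycling enzyme and HNF1 partner, at 290.1 ± 27.1 TPM against 624 ± 142.

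Drug metabolism was lower as a group, with single genes going the other way. The 47 coding genes listed from cytochrome P450 families 1 to 3 took 0.61% to 0.67% of coding TPM in hepatocytes and 2.04% to 2.43% in oil liver. Of 34 tested, 32 had a lower mean log2 value, and 5 were called lower. Cyp1a2, a pericentral enzyme, was at 99.2, 89.6 and 108 TPM against 1022, 1169 and 1252. Cyp2e1, the enzyme of ethanol and CCl4 metabolism, was 6.39-fold lower at 1088, 964 and 996 TPM against 6095, 5816 and 7558 and was not called. Cyp2b10, the classical target of the receptor CAR, was the 1 member called higher, at 415, 354 and 379 TPM against 16.8, 21.6 and 37.2. That is 2.94% of the tested members, near the 2.35% of all tested genes. Cyp2c70, which makes muricholic acids, was at 1231, 1048 and 1112 TPM against 908, 811 and 961. With FPKM as deposited 11 P450 genes were called lower and with the median set to 0, 10. Of 38 phase II conjugation genes 4 were called lower, among them the sulfotransferase gene Sult2a8 at 50.7, 37.6 and 48.3 TPM against 625, 622 and 943. Gsta1, a glutathione transferase gene inducible by NRF2, was called higher at 146, 212 and 214 TPM against 10.4, 4.93 and 9, although its reads may be shared with close paralogs. It was the 1 phase II gene called higher, 2.63% of that list and again near the share of all tested genes.

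Fat oxidation and fat synthesis genes differed in pattern. Of 34 fatty acid oxidation genes and PPAR-alpha targets, 7 were called lower and 1 higher, Fgf21, described below with the stress genes. That 1 gene is 2.94% of them, against 2.35% of all tested genes. Acsl1, which activates long-chain fatty acids, was at 11.4, 9.92 and 11.5 TPM against 270.0, 204 and 237. Acadvl, the first dehydrogenase of mitochondrial oxidation, overlapped between groups at means of 167 ± 19.6 and 187 ± 29.3 TPM. Of 27 fatty acid and triglyceride synthesis genes, 15 lay within 2-fold, a share near the 57.6% of all tested genes. The 1 called lower, 3.70% of them against 3.05% of all tested genes, was the elongase gene Elovl3. It was at 10.4, 11.9 and 10.7 TPM against 1132, 773 and 814. None of 26 cholesterol synthesis genes was called, and their median was 0.79. Hmgcs1, the first committed enzyme of that pathway, overlapped between the groups at 198, 217 and 228 TPM against 246, 120.0 and 191.

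Hormone-dependent genes of male liver were far lower in the cultures. Of 14 male-biased genes 8 were called lower and every member had a lower mean (median -3.12). Besides Elovl3, Hsd3b5, a steroid reductase, was at 8.89, 6.98 and 9.1 TPM against 488, 575 and 454. Ghr, the growth hormone receptor, was at 17.7, 17.4 and 16.9 TPM against 178, 174 and 209, 10.8-fold lower. The 19 tested major urinary protein genes, secreted pheromone carriers under growth hormone control, had 11 called lower and took 1.9% to 2.0% of coding TPM against 4.3% to 7.9% in oil liver. Mup17 was at 5.32, 5.93 and 5.72 TPM in hepatocytes and 1545, 5028 and 4911 in oil liver. Mup3, the most abundant member in oil liver, was at 10073, 8392 and 8383 TPM against 18372, 21903 and 28738 and was not called. These genes are near-identical copies, so that the split of reads between members is uncertain. Mup15, called lower at 8.28, 15.3 and 8.24 TPM against 341, 2639.6 and 6669, was at 10.6, 15.6 and 1049.8 in the MCC950 libraries, where replicate 3 stood apart. Its difference of -7.35 was -8.55 without oil replicate 1 and -6.41 without oil replicate 3.

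**Figure D3:**
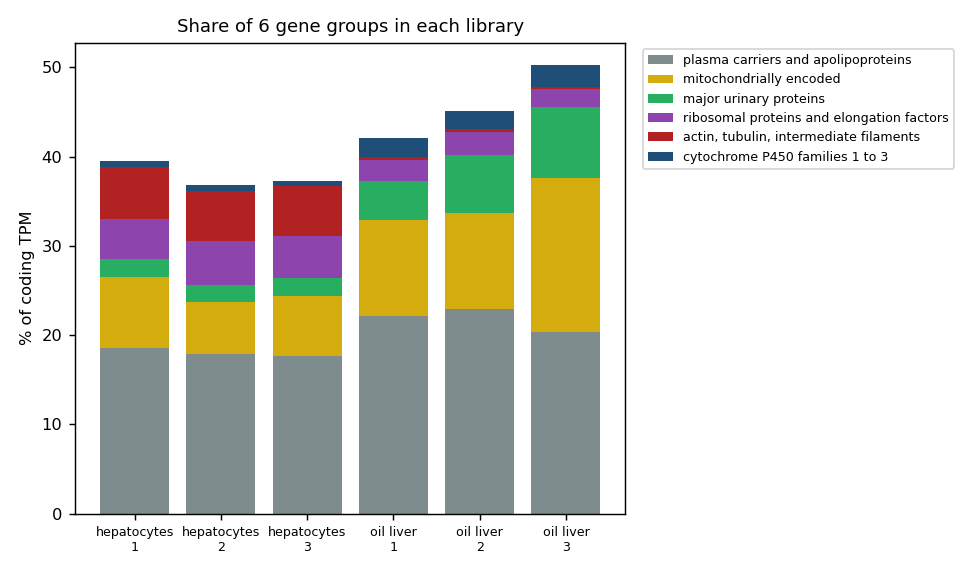
Percent of coding TPM taken by 6 gene groups in each of the 6 libraries, as stacked bars from 0. Actin, tubulin and intermediate filament genes (red) take 5.6% to 5.7% in hepatocytes and 0.21% to 0.31% in oil liver, while the P450 (dark blue) and major urinary protein (green) shares are smaller in hepatocytes.

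Cytoskeleton genes were higher as a group, with the highest median of all lists on the coding TPM scale. With FPKM as deposited the fetal liver and epithelial injury list ranked above it, at 4.04 against 2.70. The filter of 1 then applied to FPKM and 9654 genes were tested. List medians on that scale can therefore be over fewer members, and the change in rank is not one of scale alone. Of 41 tested actin, tubulin and intermediate filament genes, 24 were called higher and none lower, 58.5% of them against 2.35% of all tested genes, with a median difference of 3.25. Krt8 and Krt18, the keratin pair of simple epithelia, neighbour each other at chr15:101996698-102004482 and chr15:102028180-102032027 (mm10) and together took 3.7% to 4.0% of coding TPM in hepatocytes. Krt8 was at 21040.0, 22132 and 21702 TPM against 328, 280.5 and 196 in oil liver, 80.6-fold higher, and Krt18 at 18571, 15397 and 15541 against 245, 271 and 161, 73.2-fold higher. No value in 1 group came near the other, and both genes were among the 10 most abundant of the cultures. Actb (beta-actin), often taken as a constant reference gene, was at 5144, 4992 and 5225 TPM against 502, 308 and 309. Tubb6, a beta-tubulin, was at 766, 981 and 930.0 TPM against 12.5, 11.9 and 9.89, and Vim (vimentin), a mesenchymal filament protein, at 106, 106 and 119 against 14.5, 10.4 and 10.1. Msn (moesin), which blood and endothelial cells also express, overlapped at means of 15.9 ± 1.15 and 15.7 ± 1.76 TPM. The difference was negative in 3 members. The farthest below 0 was Tmsb4x (thymosin beta-4), abundant in blood cells, at 31.7 ± 0.746 TPM against 236 ± 35; it was chosen after its values were seen. With FPKM as deposited 17 members were called higher and 1 lower.

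Genes of adhesion and of the mechanosensitive factors YAP and SRF were higher in part. Of 16 tested YAP and SRF targets 8 were called higher and 1 lower; with FPKM as deposited, 2 were called higher. Ctgf (Ccn2), a matricellular protein, was at 469, 442 and 462 TPM in hepatocytes and 4.59, 1.01 and 1.53 in oil liver, and Cyr61 (Ccn1), its relative, at 810.3, 847 and 867 against 13.2, 8.74 and 10.4. Ankrd1, a nuclear ankyrin repeat protein, was at 23.6, 21.2 and 23.9 TPM against 0.35, 0.259 and 0.669. Axl, a receptor kinase of macrophages and stromal cells, was the member called lower, at 0.0676, 0.0661 and 0 TPM against 21, 18.5 and 10.9. Yap1 itself differed little, at 23.2, 30.2 and 29.8 TPM against 20.6, 20.2 and 15.7. Among 27 integrin and adhesion genes 4 were called higher (2 with FPKM as deposited), led by Cldn4 (claudin-4), a tight junction protein of ducts and gut, at 305, 404 and 394 TPM against 0.426, 0.251 and 0.279. Cd63, a tetraspanin of late endosomes, was at 169, 199 and 189 TPM against 3.36, 2.85 and 1.65. Anxa2 and S100a11, a calcium-dependent membrane protein and a small calcium-binding partner of annexins, were 44.2-fold and 42-fold higher at 384 ± 5.15 and 819.6 ± 84.3 TPM. Plaur, the urokinase receptor, was at 53.8, 67 and 61.1 TPM against 0.886, 0.872 and 0.129.

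Genes marking injured or regenerating epithelium included the single largest difference. Sprr1a, a small proline-rich protein of squamous and injured epithelia at chr3:92483952-92485895, was at 10422, 8623 and 8819 TPM in hepatocytes and had no read in any oil liver, at least 15746-fold higher at the floor of 3 reads per library. In CCl4 liver Sprr1a was at 68.6, 189 and 29.8 TPM. Ly6d, a surface protein of squamous epithelium at chr15:74762056-74763620, was at 648, 625 and 667 TPM against 4.16, 2.25 and 3.86. Gml, of the same family of small anchored proteins and near it at chr15:74813452-74818815, was at 105, 114 and 108 TPM with no read in oil liver. Tnfrsf12a (Fn14), the receptor of TWEAK, was at 606, 949 and 887 TPM against 8, 8.34 and 4.19. Of 12 tested genes of the fetal liver and epithelial injury list, 5 were called higher, and the median was 2.02. It was 4.04 with FPKM as deposited, where the level filter applied to FPKM and the tested members can differ. Stretches before the starts of Sprr1a and Cldn4 are shown because both hold 2 copies of the AP-1 letters TGANTCA (capitals), and the AP-1 subunit gene Fosl1 was among the 15 genes with the largest positive difference. They are RefSeq sequences of the GRCm38.p6 build, from chr3:92485971-92486047 and chr5:134947066-134947184, both on the minus strand.
Sprr1a: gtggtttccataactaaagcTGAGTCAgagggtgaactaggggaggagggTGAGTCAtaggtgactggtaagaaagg
Cldn4: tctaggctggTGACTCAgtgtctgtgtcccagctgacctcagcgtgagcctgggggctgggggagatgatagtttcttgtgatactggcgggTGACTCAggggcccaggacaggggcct
Searched on both strands of the 300 bases from 250 before to 50 after each start, the AP-1 letters occurred in 7.81% of the table's 32851 promoters, in 6.30% of the 8597 promoters of tested genes, in 11.9% of the 202 available for genes called higher and in 9.92% of the 242 for genes called lower. A match describes the sequence and does not show a bound site.

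The immediate early and AP-1 genes were mostly higher. Of 25 tested, 22 had a higher mean and 7 were called (median 2.31). Fosl1 (FRA-1) was at 119, 154 and 154 TPM in hepatocytes against 0.272, 0.535 and 0.494 in oil liver. Klf6, an injury-induced zinc finger factor, was at 177, 205 and 208 TPM against 4.08, 5.02 and 4.76, and Atf3, a stress-induced repressor, at 72.5, 84.1 and 74.4 against 1.29, 1.62 and 0.862. Myc was at 95.7, 95.1 and 97.7 TPM against 7.63, 2.91 and 2.67, 21.9-fold higher. Fos itself was not called, at 14.8, 14.9 and 15.6 TPM against 1.18, 5.24 and 10.7. Its difference was 1.57, and 0.92 without oil replicate 1.

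Genes of amino acid supply and of the integrated stress response were higher. Of 34 unfolded protein and integrated stress response genes, 13 were called higher and none lower, 38.2% of them. Most of the called genes are known targets of ATF4, the factor that the integrated stress response induces. Phgdh, the first enzyme of serine synthesis, was at 129.7, 135 and 123 TPM in hepatocytes against 0.311, 0.306 and 0 in oil liver. Psat1, the next enzyme of that route, was at 197, 202 and 207 TPM against 0.618, 0.465 and 0.595. In both genes the groups lay far apart. Asns (asparagine synthetase) had means of 226 ± 6.7 TPM in hepatocytes and 2.67 ± 1.69 in oil liver. Chac1, which degrades glutathione, was at 368, 495 and 457 TPM against 4.72, 6.22 and 0.928. Fgf21, a liver hormone of fasting and protein restriction, was at 203, 153 and 150.1 TPM against 1.63, 0.48 and 0.355. Gdf15, a stress hormone, was at 257, 288 and 309 TPM against 13.9, 12.6 and 11.2. Trib3, a pseudokinase induced by ATF4, had means of 139 ± 15.9 and 4.6 ± 1.24 TPM. Chaperones of the endoplasmic reticulum were not among the called genes, apart from Creld2, a cofactor of folding at 326 ± 45 against 35.3 ± 16.8 TPM. Hspa5 (BiP), the main one and chosen after its values were seen, was 4.48-fold higher at 1713 ± 61.4 against 383 ± 69.3 TPM. Canx (calnexin) overlapped at 164, 158 and 166 TPM against 169, 158 and 188. Slc7a11, the cystine carrier, was at 20, 24.1 and 24.1 TPM in hepatocytes, with at most 1 read in an oil library.

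Stretches around the starts of 4 of these genes are shown because each holds 1 copy of TGATGNAA, the form of the element that ATF4 and C/EBP factors share, in capitals. The windows are chr6:7693195-7693262 (minus strand), chr2:119351019-119351086 (plus), chr7:45615592-45615659 (minus) and chr2:152344031-152344076 (minus), from the same RefSeq table.
Asns: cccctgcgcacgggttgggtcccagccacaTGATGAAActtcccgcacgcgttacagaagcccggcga
Chac1: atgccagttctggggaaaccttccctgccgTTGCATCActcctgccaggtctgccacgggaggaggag
Fgf21: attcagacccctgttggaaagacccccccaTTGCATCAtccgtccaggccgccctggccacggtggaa
Trib3: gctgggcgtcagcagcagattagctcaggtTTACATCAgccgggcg
These letters occurred in 6 of the 12 promoters available for the called members of the list, in 7 of 31 for the whole list, in 5.94% of those for all genes called higher, in 1.24% of those for genes called lower, and in 2.77% of those for tested genes. The list was drawn up from genes known for this response, so that its share is not independent of the element, and binding was not tested. The 4 genes were chosen for holding a match, and Asns, Trib3 and Creld2 after their values were seen.

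Targets of p53 and NRF2 were higher in part. Of 20 tested p53 targets 5 were called higher, and 3 with FPKM as deposited. Cdkn1a (p21), the cell cycle inhibitor, was at 222, 274 and 266 TPM against 8.66, 4.2 and 6.84, 38.7-fold higher, and Plk3, a stress kinase, at 135, 137 and 136 against 14.3, 12.6 and 7.27. Ccng1, another p53 target, was at 40.2, 36.6 and 39.8 TPM against 26.2, 24.4 and 38.4 and overlapped. Of 28 NRF2 targets 4 were called higher, with Srxn1 (sulfiredoxin), which reactivates peroxiredoxins, at 1767, 2085 and 1979 TPM against 40.7, 40.3 and 32.5. The peroxidase gene Prdx1 was at means of 595 ± 68.9 and 739 ± 176 TPM. Of 17 tested heat shock genes Hspb1 (HSP25) was called higher, at 411, 372 and 375 TPM against 62.2, 40.4 and 19.6, but not without oil replicate 3 (difference 2.92).

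Cell cycle genes were mostly higher by less than 8-fold. Of 20 tested, 16 had a positive difference (median 0.71) and 3 were called higher, all of them genes of S phase or its entry; 12 more were too low to be tested. Rrm2, the ribonucleotide reductase subunit of S phase, was at 77.6, 77.7 and 85.4 TPM against 3.46, 3.07 and 3.29. Mcm6, of the replicative helicase, was at 61, 60.1 and 66.4 TPM against 3.21, 3.13 and 2.57, and Ccne1 (cyclin E1) at 8.63, 10.9 and 12.1 against 0.0581, 0.171 and 0.19. Some other members, chosen after their values were seen, were lower. The proliferation marker Mki67 was at 0.0111 ± 0.00964 TPM in hepatocytes and 0.512 ± 0.339 in oil liver, and Ccnb1 (cyclin B1) at 0 ± 0 against 0.316 ± 0.107, both under 1 TPM in either group. Ccnd1 (cyclin D1) was at 0.898 ± 0.277 TPM against 9.14 ± 1.43, and Tk1 (thymidine kinase), itself a gene of S phase, at 0.654 ± 0.214 against 11.9 ± 3.67.

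Metallothioneins, small cysteine-rich proteins that bind zinc and copper and are induced by metals, glucocorticoids and acute phase signals, held 3 of the 15 genes with the largest positive difference. Mt1 was at 15599, 9690.2 and 9688 TPM in hepatocytes and 5.96, 29.7 and 48.6 in oil liver, and Mt2 at 576, 1204 and 1351 against 0, 0.259 and 2.01. Both had wide spreads, with hepatocyte replicate 1 the highest in Mt1 and the lowest in Mt2, and without oil replicate 1 the Mt1 difference was 8.19 rather than 9.01. Mt4, the form of stratified epithelium, lies in the same cluster at chr8:94137197-94139031, and was at 118, 135 and 99.9 TPM with no read in oil or CCl4 liver. Of the 9 genes of the metallothionein and zinc transport list, 3 lay within 2-fold, among them the zinc carrier genes Slc30a1 and Slc39a4. With a 4-fold threshold 3 of the list were called higher and 1 lower. Slc30a1, a zinc exporter that metal also induces, was 1.85-fold higher at 45.3 ± 2.25 against 24.5 ± 4.95 TPM, and Slc39a4, an importer, overlapped at 53 ± 3.88 and 51.3 ± 9.25 TPM. The start regions of Mt1 (chr8:94178839-94179118) and Mt2 (chr8:94172368-94172647), both on the plus strand, are shown because of their copies of the metal response element core, TGCACNC or TGCGCNC on either strand, in capitals. The sequences run from 250 bases before to 30 after the RefSeq start.
Mt1: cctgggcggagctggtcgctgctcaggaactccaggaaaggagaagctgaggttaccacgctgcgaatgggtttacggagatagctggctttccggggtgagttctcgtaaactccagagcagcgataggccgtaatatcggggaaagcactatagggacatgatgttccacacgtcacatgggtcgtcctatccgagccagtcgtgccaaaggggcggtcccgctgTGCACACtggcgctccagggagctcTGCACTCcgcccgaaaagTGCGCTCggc
Mt2: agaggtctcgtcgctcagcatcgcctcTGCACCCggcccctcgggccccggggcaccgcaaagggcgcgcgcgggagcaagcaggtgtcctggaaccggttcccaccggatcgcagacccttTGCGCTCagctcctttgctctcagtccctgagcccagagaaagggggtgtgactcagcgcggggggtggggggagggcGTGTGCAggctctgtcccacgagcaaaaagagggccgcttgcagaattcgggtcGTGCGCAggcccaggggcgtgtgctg
Mt1 held 3 matches and Mt2 held 4. The core letters are common, with at least 1 match in 25.7% of all promoters in the table, in 40.5% of those for tested genes, in 38.6% of those for genes called higher and in 26.0% of those for genes called lower.

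Glycolytic genes were mostly higher by less than 8-fold, and glucocorticoid targets went both ways. Of 27 glycolysis and hypoxia genes, 23 had a higher mean (median 1.42) and 2 were called. The count was 6 without oil replicate 1, 5 without hepatocyte replicate 1, 1 without oil replicate 3 and 0 with FPKM as deposited. Pkm, the muscle-type pyruvate kinase, was at 86.8, 102 and 85.6 TPM against 12.5, 11 and 7.86 and lost its call without hepatocyte replicate 2 (difference 2.95) or oil replicate 3 (2.85). Of 12 glucocorticoid targets 3 were called higher (1 with FPKM as deposited), and Tat was called lower. Per1, a clock gene, was at 28.8, 29.4 and 26.4 TPM against 1.84, 0.756 and 0.689, and Zbtb16, a zinc finger factor, at 32.8, 43 and 41.9 against 4.24, 2.82 and 2.55, whereas Tsc22d3 (GILZ) overlapped at 35.9, 37.8 and 38.9 against 45.3, 43.6 and 37. G6pc, the glucose-6-phosphatase that releases glucose, was at 19, 15.5 and 18.7 TPM against 507, 228 and 146.

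Ribosomal protein transcripts were higher and mitochondrially encoded transcripts lower. All 67 genes for ribosomal proteins and elongation factors had a higher mean in hepatocytes, none was called, and their median of 1.26 was positive under each scaling tried. All 13 mitochondrially encoded genes had a lower mean (median -1.19), with a summed share of 5.8% to 8.0% of coding TPM against 10.7% to 17.3% in oil liver. Of these, mt-Atp6 and mt-Co2 were called lower, and mt-Co2 not without hepatocyte replicate 2 (difference -2.95) or oil replicate 3 (-2.56). Of 50 nuclear oxidative phosphorylation genes 49 lay within 2-fold, 46 with a negative difference (median -0.31).

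**Figure D4:**
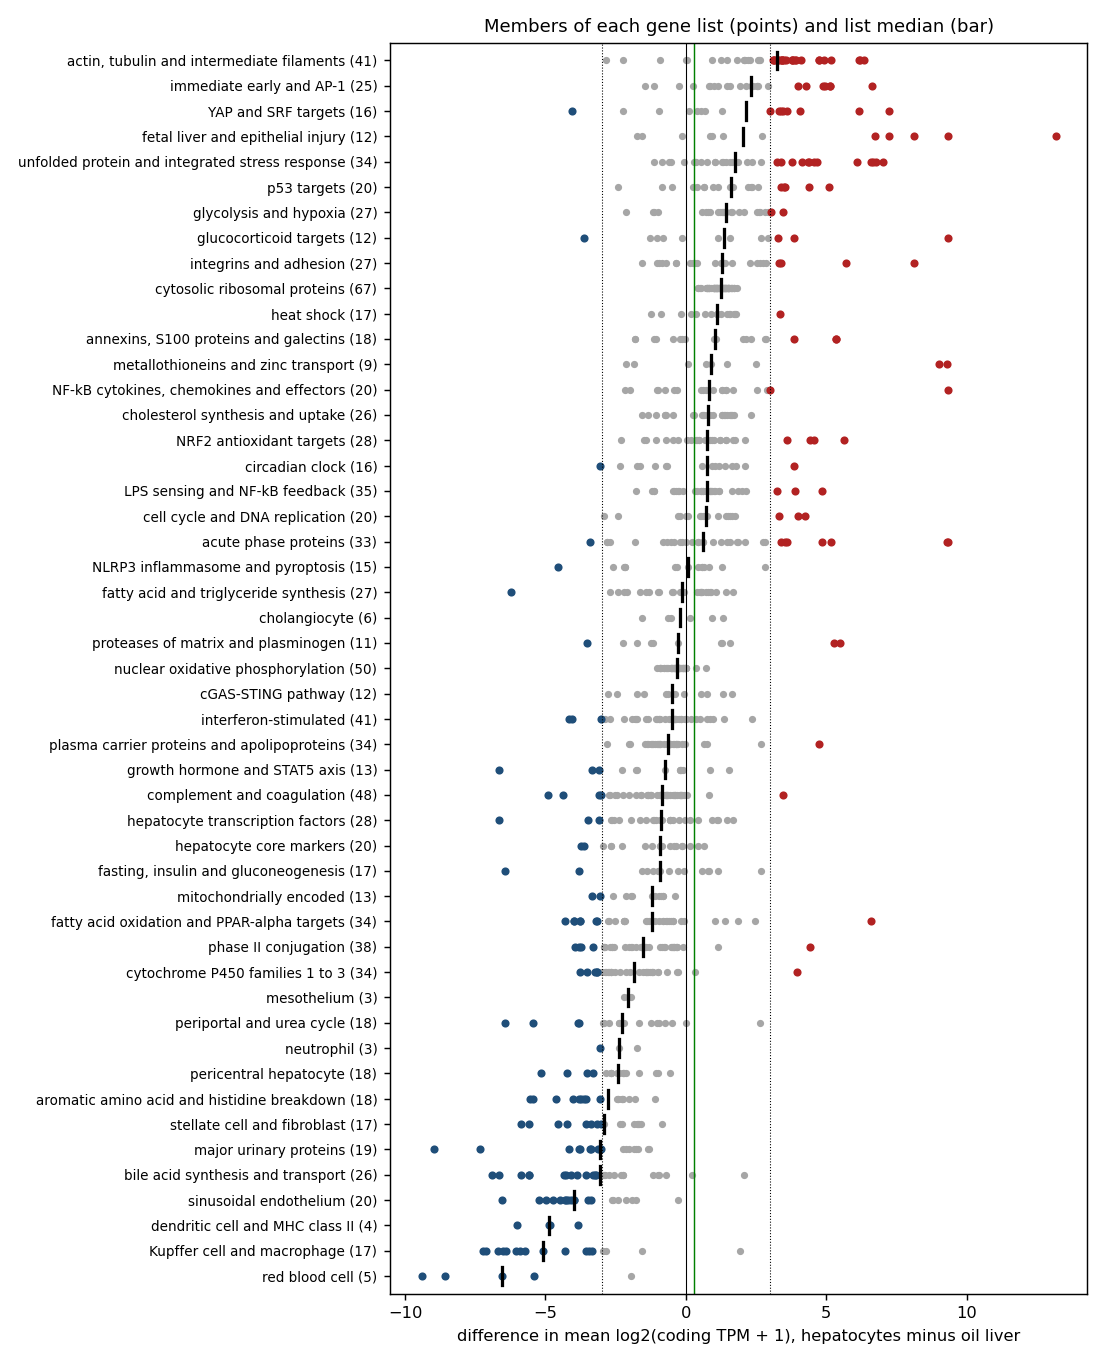
Difference in mean log2(coding TPM + 1), hepatocytes minus oil liver, for each tested member of the gene lists with at least 3 tested members; the number tested is in parentheses. The sex-linked, male-biased, female-biased and non-polyadenylated RNA lists are not drawn. Bars are list medians, the green line is the median of all tested genes (0.30), dotted lines mark 8-fold, and red or blue points are called higher or lower. On this scale the cytoskeleton has the highest median and red blood cell genes the lowest. With FPKM as deposited, where the tested members can differ, the fetal liver and epithelial injury list has a higher median than the cytoskeleton (4.04 against 2.70).

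Acute phase genes differed unevenly between the groups, and the part of the stimulus in this cannot be told apart. The acute phase list holds plasma proteins that the liver makes in inflammation, and also the metallothionein gene Mt2. Among its 33 genes 7 were called higher and 1 lower, with a median of 0.62. Lists share genes, and Lcn2 is also counted in the glucocorticoid, epithelial injury and NF-kB effector lists. Lcn2 (lipocalin-2), which binds bacterial siderophores, was at 7603, 5602 and 5763 TPM in hepatocytes and 1.12, 14.3 and 27 in oil liver. Saa2, a serum amyloid A protein, was at 529.5, 989 and 885 TPM against 4.54, 39.4 and 43.2. Saa1, nearly the same in sequence, so that reads may be shared between them, was at 719, 1321 and 1152 TPM against 14, 195 and 248. Oil replicate 1 was the lowest liver library for all 3 genes. Without it the differences were 8.24 for Lcn2, 4.20 for Saa2 and 2.23 for Saa1, which then was not called. Saa3, an inducible form made also outside liver, was at 46, 59.5 and 47.2 TPM against 1.31, 14 and 1.23; oil replicate 2 was the highest there, and without it the difference was 4.51 rather than 3.60. Hamp (hepcidin), the iron hormone, was 3.55-fold higher at 9080.3, 6593 and 7416 TPM against 2683, 2208 and 1619.7, and Hpx (hemopexin), a heme carrier, 3.52-fold higher. The fibrinogen beta chain gene Fgb and Cp (ceruloplasmin) overlapped, at means of 2529 ± 142 against 2808 ± 295 and 305 ± 17 against 305 ± 50.6 TPM.

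Of 35 tested genes of LPS sensing and NF-kB feedback, 3 were called higher and none lower, with a median of 0.74; with FPKM as deposited 1 was called. Tlr4, the signalling receptor of LPS, had 1 read in each hepatocyte library (0.0306, 0.03 and 0.0298 TPM) and stood at 1.47, 0.985 and 1.85 TPM in oil liver and 11.6, 5.66 and 14.4 in CCl4 liver. Cd14, its coreceptor, was at 184, 186 and 185 TPM in hepatocytes against 4.33, 6.87 and 5.26 in oil liver, 33.7-fold higher. Ly96 (MD-2), the partner of TLR4, was at 15.1 ± 0.443 TPM against 6.21 ± 1.32 and Lbp, the LPS-binding plasma protein, at 73.1 ± 0.603 against 47.3 ± 0.94; both were chosen after their values were seen. Among the feedback genes Irak3 (IRAK-M), an inhibitor of the pathway, was at 27.9, 23.8 and 25.5 TPM against 1.05, 0.621 and 0.78. Nfkbia (IκBα) was at 69.6, 69.7 and 70.6 TPM against 41, 40.6 and 38.4, and Tnfaip3 (A20) at 7.67, 8.18 and 8.14 against 1.46, 1.24 and 1.1, neither of them called and neither overlapping. Nfkb2, the p100 precursor, was at 61, 72.1 and 75.2 TPM against 8.32, 7.54 and 4.1 and was not called without oil replicate 3 (difference 2.98).

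Many cytokine genes were at or near 0 in both groups. Of 39 coding genes for NF-kB cytokines, chemokines and effectors, 19 had a mean under 1 TPM and were not tested. Tnf and Il6 had no read in any hepatocyte library. Il1b was at 0.178, 0 and 0 TPM in hepatocytes and 5.35, 4.86 and 1.95 in oil liver. Of the 20 tested, 2 were called higher, Lcn2 and Ccl2. With 0.1 TPM added before the log2 in place of 1, 6 were called higher and 2 lower, and with a 4-fold threshold 4 higher and 1 lower. Ccl2, the monocyte chemokine MCP-1, was at 21.5, 33.6 and 29.3 TPM against 2.45, 2.14 and 3.26, and met the rule so narrowly that leaving out hepatocyte replicate 2 or 3 or oil replicate 1 or 2 ended the call (differences 2.86 to 2.97). Cxcl1, a neutrophil chemokine, was at 39.2, 37.9 and 39.5 TPM against 4.45, 25.7 and 29, with a difference of 1.29, and 0.49 without oil replicate 1. Cxcl10, an interferon-induced chemokine, was at 0.453, 1.11 and 1.84 TPM against 2.68, 2.23 and 2.55. Cxcl2, chosen after its values were seen, had means of 5.4 ± 1.38 and 0.101 ± 0.0399 TPM.

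Interferon-stimulated genes were more often lower than higher. Of 41 tested, 33 had a lower mean log2 value, 3 were called lower and none higher. Iigp1, an immunity-related GTPase, was at 14.6, 13.8 and 14.1 TPM against 214, 288 and 329, and Ifi27l2a at 1.47, 0.36 and 0 against 22, 36.1 and 17.1. Ifit3, a restriction factor, was called at 1.07, 1.14 and 0.38 TPM against 11.7, 18.5 and 12.4, but not without hepatocyte replicate 3 (difference -2.82) or oil replicate 2 (-2.83). Irf7, the factor that amplifies the response, overlapped at means of 22 ± 1.3 and 23.9 ± 9.22 TPM.

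The genes of the NLRP3 inflammasome itself were near the limit of detection in the cultures. Nlrp3, the sensor, was at 0.0419, 0 and 0.163 TPM in hepatocytes, 0.953, 1.16 and 0.749 in oil liver and 5.42, 2.08 and 2.66 in CCl4 liver. Pycard (ASC), the adaptor, was at 0.134, 0 and 0 TPM against 0.448, 0.56 and 0.977. Casp1, the protease, was at 0, 0.111 and 0 TPM against 4.34, 5.99 and 5.41 and 30.7, 19.4 and 34 in CCl4 liver. Casp4 (caspase-11), the intracellular LPS sensor, was at 0.138, 0.0897 and 0.223 TPM against 1.04, 0.984 and 1.18. Each of these 4 genes was lower in every hepatocyte library than in any oil liver, and Nlrp3, Pycard and Casp4 were too low to be tested. By contrast Gsdmd (gasdermin D), the pore-forming substrate, was at 41.9, 48.7 and 45 TPM in hepatocytes and 37.6, 32.8 and 21.2 in oil liver, and Ninj1, which ruptures the membrane of dying cells, at 184, 243 and 225 against 307, 326 and 189, overlapping. Il18, the other cytokine substrate, was at 4.29, 4.04 and 4.34 TPM against 22, 18.1 and 28.6. Of 15 tested genes of the list, Nlrp6, a related sensor of gut and liver, was the 1 called, at 1.21, 1.61 and 1.34 TPM against 68.7, 51.8 and 46, lower in hepatocytes. With 0.1 TPM added before the log2 in place of 1, 3 members were called lower and 1 higher. Casp1 was then called lower (difference -5.37). The median of the list was 0.07 and turned negative with FPKM as deposited (-0.43), with the median set to 0 (-0.23) and with scaling without mitochondrial and major urinary protein genes (-0.28). With FPKM as deposited and with the last of these scalings the tested members can differ. In the macrophage list of the same libraries Clec4f and C1qb were likewise at or near 0; their part in the lower inflammasome and interferon genes was not tested.

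Of 12 tested genes of the cGAS-STING pathway, the arm of cytosolic DNA sensing, none was called. Sting1 (Tmem173 in the table), the adaptor, was at 0.296, 0.217 and 0.144 TPM in hepatocytes, 2.08, 2.44 and 2.64 in oil liver and 18.5, 15.7 and 15.4 in CCl4 liver, and the hepatocyte and oil groups did not overlap. Tbk1, the kinase it recruits, was at 23.3, 26 and 26.1 TPM against 15.2, 13.6 and 14.8. Irf3, the factor that TBK1 phosphorylates, chosen after its values were seen, had means of 104 ± 7.65 and 33.7 ± 9.82 TPM.

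**Figure D5:**
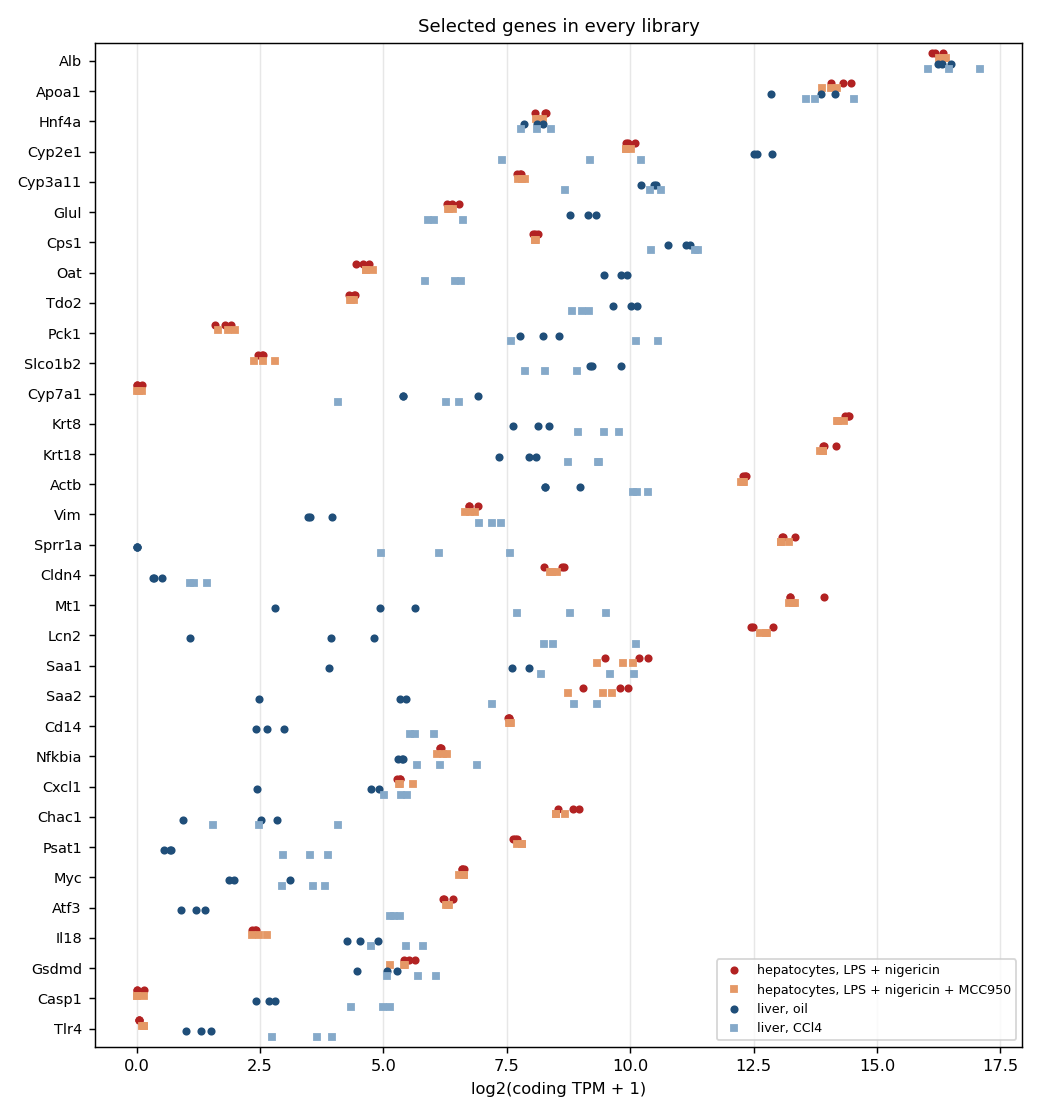
log2(coding TPM + 1) of selected genes in each of 12 libraries (points), with hepatocytes in red and orange and livers in blue and light blue. Alb and Hnf4a overlap between all groups, Krt8, Sprr1a, Mt1 and Psat1 are higher in all 6 hepatocyte libraries than in any liver, and Casp1 and Tlr4 are near 0 in those libraries.

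Among the genes described, some calls depended on the scaling. Without the rescaling of FPKM, S100a9, Stab2, Onecut1 and Ifit3 were no longer called lower. Per1, Zbtb16, Pkm, Ankrd1, Hspb1, Ccne1, Irak3, Nfkb2, Ccl2, Saa3 and Vim were no longer called higher. Ecm1, Cyp2e1, Glul and Cps1 were called lower on that scale.

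The hepatocyte libraries with MCC950 are given beside the same 3 oil livers, which both comparisons share. With them, 253 genes were called higher and 323 lower. Krt8 was at 18751, 20607 and 18964 TPM with MCC950, below every library without it. Sprr1a was at 9484, 8575 and 8568 TPM and Hnf4a at 279.6, 299 and 270.2, overlapping the libraries without the inhibitor. Tlr4, at 0.109, 0.112 and 0.0815 TPM, and Clec4f, at 0.429, 0.188 and 0.183, were again near 0.

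For several of the genes that were high in culture, CCl4 liver lay between oil liver and the hepatocytes. Lcn2 was at 1117, 306 and 345 TPM in CCl4 liver, Ly6d at 197, 127 and 203 and Tubb6 at 139, 123 and 96, each above every oil liver and below every hepatocyte library. Krt8 was at 869, 706 and 488 TPM and Mt1 at 730.1, 209 and 441, also between the groups. Chac1 differed from these, at 4.58, 15.9 and 1.91 TPM in CCl4 liver, overlapping oil liver. Macrophage genes went the opposite way from the cultures, with the summed macrophage list at 4704 to 9355 TPM in CCl4 liver, above every oil liver. Among genes that were low in culture, Oat was at 86.8, 56 and 93.7 TPM and Elovl3 at 13.3, 457 and 0.233 in CCl4 liver, all below every oil liver, and Elovl3 was lowest in replicate 3, the library with Xist.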

How the data were processed

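RNA-seq of total RNA (TRIzol, per the labels' protocols) was analysed. The submitters' processing notes name HISAT2 2.2.1, featureCounts 1.5.0-p3 and mm10; whether strand was used in counting is not stated, so antisense overlaps cannot be told apart. The authors deposited FPKM with gene lengths for 54532 genes per table, in 2 tables used here; another, of thioacetamide livers, was not used here. Reads came back from FPKM times gene length, which in each library fell on whole steps for 100% of values (within 0.05). Whether replicates are separate animals or cultures is not stated. No pair agreed within sampling noise (chi-square per degree of freedom at least 4.66). Log2 of rescaled FPKM + 1 was compared as described, with no test across tables, and the rule was tested on simulated data.

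The members, 55 lists (1245 of 1249 genes matched) and rules were chosen with earlier results of these data known. Named genes are the 15 called genes with the largest difference in each direction at 10 TPM or more, the 10 most abundant per group, up to 4 called members and the 2 nearest 0 per list, and a fixed list of markers and pathway genes. In all, 18 alternatives were tried. Promoters (RefSeq, GRCm38.p6) matched 8597 of 10860 tested names. Python 3.11.15, numpy 2.4.6 and pandas 2.3.3 were used. Results on some genes are not reported here.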

Additional observations from a re-analysis of the deposited data

How the results depend on the processing

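No gene called in 1 direction was called in the other under any of the 18 alternatives. A pseudocount of 0.1 gave 392 genes called higher and 792 lower, and one of 5 gave 125 and 138. With FPKM as deposited, where 9654 genes passed the filter, 127 were called higher and 288 lower. A 4-fold threshold gave 751 and 851, and a 16-fold one 99 and 120. Requiring the lowest library of 1 group to lie 8-fold above the highest of the other gave 169 and 222. Leaving out each library in turn gave 232 to 284 higher and 316 to 340 lower, and 11 of the 136 named called genes lost the call in at least 1 such run. A filter of 5 TPM gave 247 and 309, no filter 255 and 331, noncoding genes included gave 282 and 370, the median set to 0 gave 200 and 446, and scaling without mitochondrial and major urinary protein genes 234 and 410. Depth limits statements on genes at 0: 3 reads on a gene of 2 kb are about 0.25 TPM in hepatocyte replicate 2. No paired analysis was possible because the groups come from different tables, no test was run between them, and nothing ties a hepatocyte replicate to a liver replicate of the same number.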
